A study of Bos taurus and Bos indicus with 6 samples.

Results

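The enzymes described here are 25 ubiquitin-conjugating enzymes of the UBE2 family and 26 deubiquitinating enzymes of the USP family, 51 genes of the 9155 named genes on a bovine expression array. They are all genes whose symbol starts with UBE2, or with USP followed by a digit, except UBE2C and USP18, which were left out. Where a gene had more than 1 of the 71 probe sets that matched, the probe set with the highest mean over all arrays stood for it. Circulating white blood cells were taken from 3 Holstein animals (Bos taurus) and 3 Brahman animals (Bos indicus). All 6 were females of 6 months under repeated heavy infestation with the cattle tick Rhipicephalus microplus, and each animal's RNA was hybridised to its own array. The cells were the whole white cell pellet left after red cell lysis, with no sorting, so fewer cells of a type and less RNA per cell cannot be told apart. Uninfested animals were not analysed here, so a difference between the breeds includes any that exists without ticks. The labels do not say whether the animals of a breed were related. Whether the probes match the transcripts of both breeds equally well was not tested.

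Ubiquitin is a small protein that is attached to other proteins through a relay of an activating enzyme (E1), a conjugating enzyme (E2) and a ligase (E3). The E2 carries ubiquitin on a cysteine, and the E2 in use often decides which kind of chain is built. Some chains send the target to the proteasome, while others assemble signalling complexes, as in NF-kappa-B activation downstream of Toll-like, TNF and antigen receptors in leukocytes. The USP enzymes form the most numerous class of deubiquitinases, proteases that cut ubiquitin off again. UBE2 names also cover enzymes for ubiquitin-like modifiers, such as UBE2L6 for ISG15 and UBE2F for NEDD8.

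The cells read as leukocytes: the pan-leukocyte gene PTPRC had a mean level of 12.70, the T cell gene CD3E 11.19 and the B cell gene MS4A1 12.75 (log2 RMA values, mean of 6 arrays), where the lower quartile of all probe sets was 5.08. Of the red cell markers, AHSP and SLC4A1 lay below that quartile, HBA read 5.09, ALAS2 5.90 and HBB 9.73. The array median ran from 6.54 to 6.61. Some cell type markers and array controls moved with breed. T cell markers averaged 10.25 to 10.31 on the Holstein arrays and 10.42 to 10.58 on the Brahman arrays (5 of 5 measured, 4 of them higher in Brahman). The 2 measured monocyte markers, CD14 and CSF1R, averaged 9.23 to 9.86 in Holstein and 8.76 to 9.01 in Brahman. The 3 measured neutrophil markers averaged 10.37 to 10.65 and 10.69 to 11.30, and the 4 NK markers 7.42 to 7.59 and 7.99 to 8.57, in the same order, but the genes within each list were not alike. Of the neutrophil markers ALPL differed by 1.42 (Brahman minus Holstein), but S100A8 by -0.02 and S100A9 by 0.09. Of the NK markers GZMB differed by 2.51, KLRD1 by 0.90 and NCR1 by 0.09, but PRF1 by -0.60. The 2 measured B cell markers averaged 11.63 to 11.80 in Holstein and 11.37 to 11.63 in Brahman. Of the 5 measured red cell markers 3 were higher in Brahman, while ALAS2 differed by -0.56. Of the 2 measured platelet markers PF4, at a mean of 10.71, differed by -0.60. The other, ITGA2B, lay under the lower quartile and differed by 0.10. The hybridisation spike-in controls were at 10.14 ± 0.22 in Holstein and 9.72 ± 0.08 in Brahman (SD, n = 3 each). The actin 3′ minus 5′ difference, a sign of RNA quality, ran from 1.73 to 1.98 in Holstein and from 1.64 to 1.72 in Brahman. The part of cell composition and RNA quality in the values that follow was not tested. Values from a separate fit with a term for the spike-in level are given as well. That level did not overlap between the breeds (9.94 to 10.38 in Holstein, 9.64 to 9.80 in Brahman), so this fit cannot fully separate it from breed.

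None of the 51 enzymes was called different between the breeds. In limma, with Benjamini-Hochberg adjustment over all 24016 probe sets tested, 0 of 51 had an adjusted p under 0.05, against 0.137% of all probe sets, and the smallest adjusted p of a member was 0.195. At an unadjusted p under 0.05 there were 4 of 51 members (7.84%), against 13.6% of all probe sets. These were the conjugating enzymes UBE2A and UBE2N and the deubiquitinase USP20, all lower in Brahman, and the conjugating enzyme UBE2D2, higher in Brahman. The counts by direction were 3 lower and 1 higher, against 6.47% and 7.12% of all probe sets. In 7 of 51 members the breeds did not overlap, against 20% of all probe sets. Of these 3 were lower and 4 higher in Brahman, against 8.37% and 11.7% of all probe sets. None of these shares of the members was above that of the array as a whole. Among the brightest probe sets of all named genes, chosen as the members were, 15.8% had an unadjusted p under 0.05 in limma. In 22.7% of them the breeds did not overlap. By sign alone 30 of 51 members (58.8%) were higher in Brahman, against 55.5% of all probe sets and 48.3% of those brightest ones.

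The differences were small in size as well. Over the 51 members the difference, given throughout as Brahman minus Holstein on the log2 scale, ran from -0.42 for USP53 to 0.32 for USP37. The median was 0.05 for the conjugating enzymes and 0.03 for the deubiquitinases. It was 0.02 for all probe sets and -0.008 for the brightest probe set of each named gene. The median size of the difference without its sign was 0.13 for the members and 0.12 for all probe sets, and the median within-breed SD was 0.14 and 0.15. The 95% confidence interval lay within a 2-fold change in either direction for 50 of 51 members, against 94.6% of all probe sets. The exception was UBE2G1, with an interval from -0.52 to 1.04. It lay within a 1.5-fold change for 41 members (80.4%, against 77.1%).

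**Figure D1:**
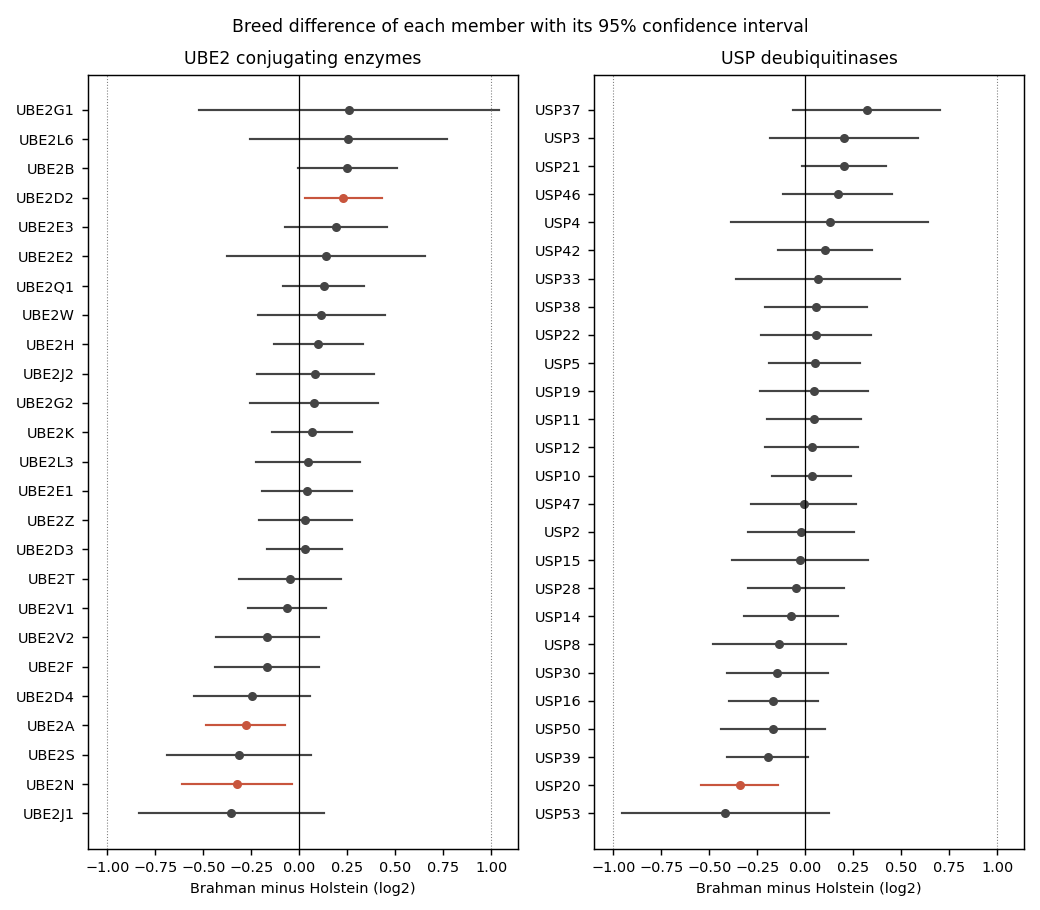
Brahman minus Holstein difference (log2, points) with its 95% confidence interval from limma (lines, n = 3 animals per breed) for the 25 UBE2 and 26 USP genes. Red marks an unadjusted p under 0.05 (4 genes, none with an adjusted p under 0.05), dotted lines mark a 2-fold change, and only the interval of UBE2G1 reaches past one.

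UBE2A and UBE2B are the vertebrate counterparts of yeast RAD6, close paralogs that act in histone ubiquitination and in the tolerance of DNA damage. UBE2A read 9.62, 9.68 and 9.59 on Holstein arrays 1, 2 and 3 and 9.30, 9.44 and 9.32 on Brahman arrays 1, 2 and 3. All Brahman values lay below all Holstein values, and the difference was -0.28 (SE 0.09, adjusted p = 0.259 in limma). UBE2B read 10.59, 10.82 and 10.79 in Holstein and 10.88, 11.13 and 10.94 in Brahman. Here every Brahman value lay above every Holstein value, by as little as 0.06 on the nearest pair, with a difference of 0.25 (SE 0.11, adjusted p = 0.379). The second probe set of each gene had the same sign as the first: UBE2A differed by -0.38, again without overlap, and UBE2B by 0.44, with overlap because Holstein 3 read 10.11.

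Within each array the UBE2B value was also set against the UBE2A value, and this gap was wider in Brahman by 0.53. Among 14 pairs of related members compared in this way, it was the largest change. In 3 of the 14 pairs the gap did not overlap between the breeds. The wider gap of UBE2B and UBE2A follows from the opposite signs just given and is no further result.

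The UBE2D and UBE2E enzymes are E2s of broad use that work with many RING ligases. UBE2D2 read 10.76, 10.82 and 10.88 in Holstein and 11.04, 11.10 and 11.00 in Brahman. The Brahman values were all higher, with a difference of 0.23 (SE 0.09, unadjusted p = 0.030, adjusted p = 0.316 in limma). Its relative UBE2D3 was among the steadiest genes here, at 12.00, 12.00 and 11.90 in Holstein and 12.03, 11.99 and 11.97 in Brahman. The interval of its difference ran from -0.17 to 0.22. UBE2D4 gave no single direction: its brighter probe set differed by -0.25 with overlap, and its other one by 0.23 without overlap (unadjusted p = 0.038, adjusted p = 0.340). UBE2E1 and UBE2E2, which lie next to each other in the bovine annotation with no protein-coding gene between them, differed by 0.04 and 0.14. UBE2E3 differed by 0.19, reading 9.88, 9.85 and 10.19 in Holstein and 10.21, 10.15 and 10.13 in Brahman, where Holstein 3 lay with the Brahman arrays.

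UBE2N forms, together with the inactive E2 variants UBE2V1 or UBE2V2, the enzyme for signalling chains used by TRAF ligases and in T cell receptor signalling. UBE2N read 8.92, 8.91 and 8.63 in Holstein and 8.39, 8.66 and 8.44 in Brahman. Brahman 2 lay just above Holstein 3, so the breeds overlapped, and the difference was -0.32 (SE 0.12, unadjusted p = 0.032, adjusted p = 0.321 in limma). Its partners had the same sign with smaller differences, UBE2V1 at -0.07 (interval -0.27 to 0.14) and UBE2V2 at -0.17 (interval -0.43 to 0.10). UBE2V1 read 10.41, 10.46 and 10.55 in Holstein and 10.43, 10.44 and 10.36 in Brahman, with overlap.

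UBE2S extends chains for the anaphase-promoting complex in mitosis. It read 8.66, 8.30 and 8.27 in Holstein and 8.36, 8.06 and 7.88 in Brahman. The highest Brahman value lay above 2 of the Holstein values, and the difference was -0.31 (interval -0.69 to 0.06). UBE2T, the E2 of the Fanconi anaemia pathway, overlapped fully: 8.05, 8.18 and 7.94 in Holstein and 7.88, 7.97 and 8.17 in Brahman, a difference of -0.05.

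Several E2s serve the degradation of misfolded proteins from the endoplasmic reticulum. UBE2J1, which sits in that membrane, read 7.04, 7.71 and 6.95 in Holstein and 6.99, 6.97 and 6.67 in Brahman. Its difference of -0.35 has an interval from -0.84 to 0.13, and Holstein 2 stood apart from the other 5 arrays. Its relative UBE2J2 differed by 0.08, UBE2G2 by 0.08 and UBE2G1 by 0.26. UBE2G1 had the widest spread within a breed of any member, with Brahman arrays at 10.48, 11.72 and 10.87 and Holstein arrays at 10.45, 11.24 and 10.60. Array 2 of each breed was the high one. UBE2K, which can build degradation chains, read 9.29, 9.40 and 9.48 in Holstein and 9.48, 9.41 and 9.47 in Brahman, a difference of 0.07.

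UBE2L3 works with HECT ligases and with the linear chain assembly complex of inflammatory signalling. It read 8.30, 8.12 and 7.91 in Holstein and 8.11, 8.17 and 8.18 in Brahman, a difference of 0.05 (interval -0.22 to 0.32). UBE2L6, the interferon-induced E2 for ISG15, read 9.01, 8.96 and 8.34 in Holstein and 9.37, 8.79 and 8.92 in Brahman. It varied as much within a breed as between them (difference 0.25, interval -0.26 to 0.77), with Brahman 1 highest and Holstein 3 lowest. UBE2F, an E2 for the cullin modifier NEDD8, differed by -0.17.

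The remaining E2s were UBE2Q1, UBE2H, UBE2W and UBE2Z. UBE2Q1 differed by 0.13 without overlap, the nearest values being 10.82 on Brahman 1 and 10.79 on Holstein 1. UBE2H, UBE2W, which attaches ubiquitin to the amino terminus of proteins, and UBE2Z, which is charged by the second ubiquitin E1 enzyme UBA6, differed by 0.10, 0.11 and 0.03, all with overlap.

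**Figure D2:**
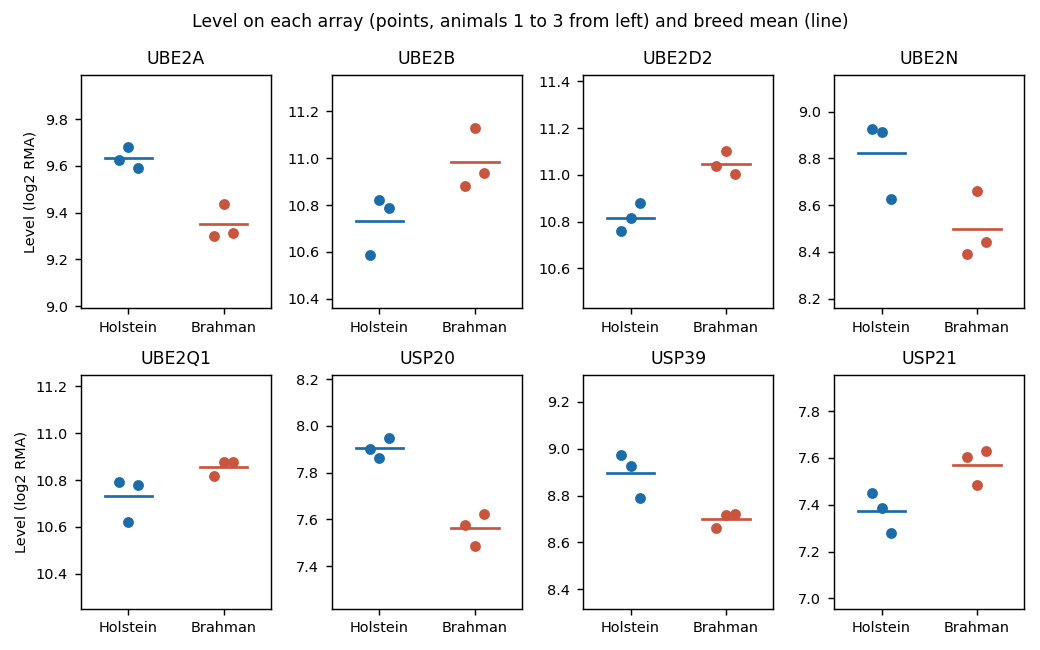
Level (log2 RMA) of 8 members on each of the 3 Holstein (blue) and 3 Brahman (red) arrays, with a line at the breed mean, and every panel spanning 1 log2 unit. These are the 7 members whose breeds did not overlap and UBE2N, where Brahman 2 at 8.66 lies above Holstein 3 at 8.63.

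Among the deubiquitinases the smallest p belonged to USP20, which with its relative USP33 removes ubiquitin from signalling proteins and receptors. USP20 read 7.90, 7.86 and 7.95 in Holstein and 7.58, 7.49 and 7.62 in Brahman. The Brahman values were all lower, by 0.24 on the nearest pair, and the difference was -0.34 (SE 0.09, unadjusted p = 0.0049, adjusted p = 0.195 in limma), which is 1.27-fold higher in Holstein. It stayed at an unadjusted p under 0.05 in each of the 6 fits that left out 1 array. With the mean of its probe sets in place of the brighter one, the difference was -0.10 with an unadjusted p of 0.239. With a term for the spike-in level its difference was -0.37 with an unadjusted p of 0.057. A second USP20 probe set differed by 0.14, at a mean of 4.78, under the lower quartile of the array, where signal may be background. USP33 differed by 0.06 (interval -0.36 to 0.49).

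USP39 is a USP protein without protease activity that belongs to the spliceosome. It read 8.97, 8.93 and 8.79 in Holstein and 8.66, 8.72 and 8.72 in Brahman, a difference of -0.20 (SE 0.09, adjusted p = 0.396 in limma) without overlap. USP21, USP16, USP3 and USP22 are known to act on histones. USP21 read 7.45, 7.39 and 7.28 in Holstein and 7.60, 7.48 and 7.63 in Brahman. Its difference of 0.20 (SE 0.09, adjusted p = 0.402) came without overlap, by as little as 0.03, and its other 2 probe sets differed by 0.15 and 0.20. USP16 went the other way, at 9.07, 9.26 and 9.20 in Holstein and 8.89, 9.07 and 9.08 in Brahman (difference -0.17, interval -0.40 to 0.07). USP3 read 7.15, 7.05 and 7.57 in Holstein and 7.30, 7.69 and 7.39 in Brahman (difference 0.20, interval -0.18 to 0.59). USP22, part of the SAGA transcription coactivator, read 9.80, 9.75 and 10.06 in Holstein and 10.02, 9.76 and 10.00 in Brahman (difference 0.05, interval -0.23 to 0.34). The signs of these histone deubiquitinases were mixed, and none was called.

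USP14 edits chains at the proteasome. It read 8.45, 8.52 and 8.50 in Holstein and 8.48, 8.52 and 8.23 in Brahman, where only Brahman 3 lay apart (difference -0.08, interval -0.32 to 0.17). USP5, which recycles free ubiquitin chains, read 9.59, 9.32 and 9.50 in Holstein and 9.58, 9.50 and 9.48 in Brahman (difference 0.05, interval -0.19 to 0.28). USP8, an enzyme of endosomal receptor sorting, read 8.79, 9.36 and 9.01 in Holstein and 8.85, 8.999 and 8.91 in Brahman, a difference of -0.14. Its neighbour in the bovine annotation, USP50, differed by -0.17. The USP50 probe set had a mean of 3.91. Like those of USP2 (4.54) and USP53 (4.77) it lay under the lower quartile of the array, so its signal may be background.

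USP15, a regulator of TGF-beta signalling, read 9.25, 9.67 and 9.10 in Holstein and 9.27, 9.27 and 9.40 in Brahman, with a difference of -0.03 and an interval from -0.38 to 0.33. Its relatives USP4 and USP11 differed by 0.13 and 0.04. In USP4 a single animal, Brahman 2 at 7.77, lay above the other 5 arrays, which ran from 6.91 to 7.35. USP12 and USP46, which share the activating partner WDR48, differed by 0.03 and 0.17. USP46 read 6.42, 6.17 and 6.50 in Holstein and 6.38, 6.60 and 6.61 in Brahman. USP30, an enzyme of the mitochondrial outer membrane, read 6.06, 5.79 and 6.03 in Holstein and 5.83, 5.92 and 5.69 in Brahman, a difference of -0.15. USP37, which acts in the cell cycle, read 6.03, 6.19 and 6.55 in Holstein and 6.43, 6.80 and 6.49 in Brahman. The upper end of its interval was 0.70, for a difference of 0.32. USP53 read 4.84, 5.43 and 4.66 in Holstein and 4.21, 4.81 and 4.65 in Brahman, and its interval was the widest among the deubiquitinases, from -0.96 to 0.12. The other deubiquitinases, USP2, USP10, USP19, USP28, USP38, USP42 and USP47, differed by -0.05 to 0.10, all with overlap between the breeds.

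Of the 51 genes 18 were measured by more than 1 probe set. In 12 of them all probe sets had the same sign, and in 6, namely UBE2D4, USP14, USP15, USP20, USP28 and USP42, they did not. Among the 14 genes whose probe sets all lay above the lower quartile, 10 had 1 sign. None of the 71 probe sets carried the manufacturer's name endings for probes shared between transcripts of different genes or with similar sequences (_s_at or _x_at). For the genes measured once, no such comparison could be made.

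**Figure D3:**
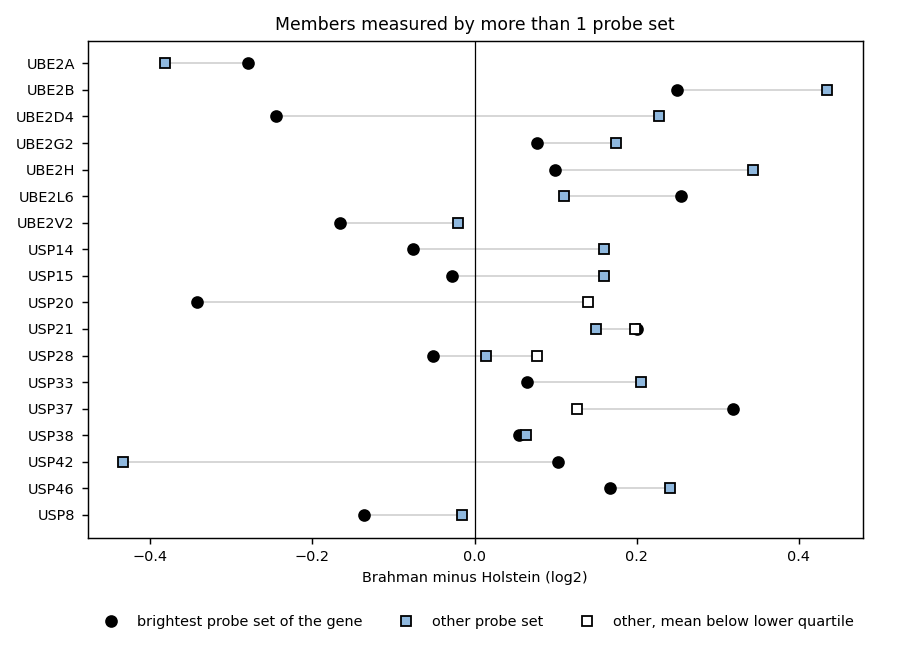
Brahman minus Holstein difference (log2) of every probe set of the 18 members measured by more than 1. UBE2A and UBE2B keep opposite signs in each of their probe sets, while those of UBE2D4 (-0.25 and 0.23) and USP42 (0.10 and -0.43) differ in sign.

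The rest of the ubiquitin system was examined with 8 lists of 128 measured genes, in which 0 genes were called and 13 (10.2%) had an unadjusted p under 0.05, 7 lower and 6 higher in Brahman. Over all probe sets the share at that p was 13.6% (6.47% lower and 7.12% higher), which is the background for the count of each list. Over the brightest probe set of each named gene, by which the lists were also read, that share was 15.8%. Of 8 measured E1 enzymes and subunits 0 reached that p in limma, and the smallest p-values were those of UBA7, the E1 for ISG15 (-0.39, interval -1.18 to 0.40), and SAE1 of the SUMO E1 (-0.12). Of 6 measured modifiers 1 had an unadjusted p under 0.05. UFM1, a ubiquitin-like modifier linked to the endoplasmic reticulum, read 7.97, 8.18 and 7.99 in Holstein and 7.34, 7.74 and 7.53 in Brahman, without overlap (difference -0.51, SE 0.13, adjusted p = 0.190). NEDD8 differed by -0.22, also without overlap. UFC1, the E2 for UFM1, read 10.25, 10.41 and 10.15 in Holstein and 9.94, 10.06 and 10.00 in Brahman. It differed by -0.27 (SE 0.10, adjusted p = 0.309) and was the 1 gene of 4 with a related E2 fold at an unadjusted p under 0.05. TSG101, an inactive E2 relative of endosomal sorting, differed by -0.19.

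None of the measured ligase genes was called at an adjusted p under 0.05. Of 14 HECT ligases 2 were higher at an unadjusted p under 0.05 and 0 lower. UBE3B had the smallest p of all genes in these further lists of the ubiquitin system. It read 7.30, 7.40 and 7.49 in Holstein and 7.97, 7.92 and 7.92 in Brahman. The breeds were well apart, yet the difference of 0.54 (SE 0.09) had an adjusted p of 0.0956 in limma. Other probe sets and alternative fits were not examined for the genes of these further lists. HERC3 differed by 0.70, at a mean level of 5.05, under the lower quartile of the array. Of 16 genes of cullin-RING ligases 2 were higher and 0 lower: DCUN1D1, which promotes the attachment of NEDD8 to cullins, by 0.52 and the substrate receptor FBXO11 by 0.52. Of 48 RING and U-box ligases and their partners 1 was higher and 3 lower, with PELI1, a ligase of Toll-like receptor and T cell signalling, at 0.56 (SE 0.12, adjusted p = 0.163) and UBR1 of the N-degron pathway at -0.44 (SE 0.12, adjusted p = 0.208).

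Of 25 deubiquitinases and related genes of other families 1 was higher and 2 were lower at that p, with OTUD5 at 0.24 and MINDY1 at -0.32. Of 7 proteases for SUMO, UFM1 and autophagy modifiers 0 reached it, and SENP7 (0.30) and ATG4D (-0.17) had the smallest p-values. The NEDD8 protease of that list, SENP8, was not among those measured. The medians of the lists ran from -0.18 for the 4 E2-fold relatives to 0.09 for the HECT ligases. They stand beside 0.02 for all probe sets and -0.008 for the brightest probe set of each named gene.

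**Figure D4:**
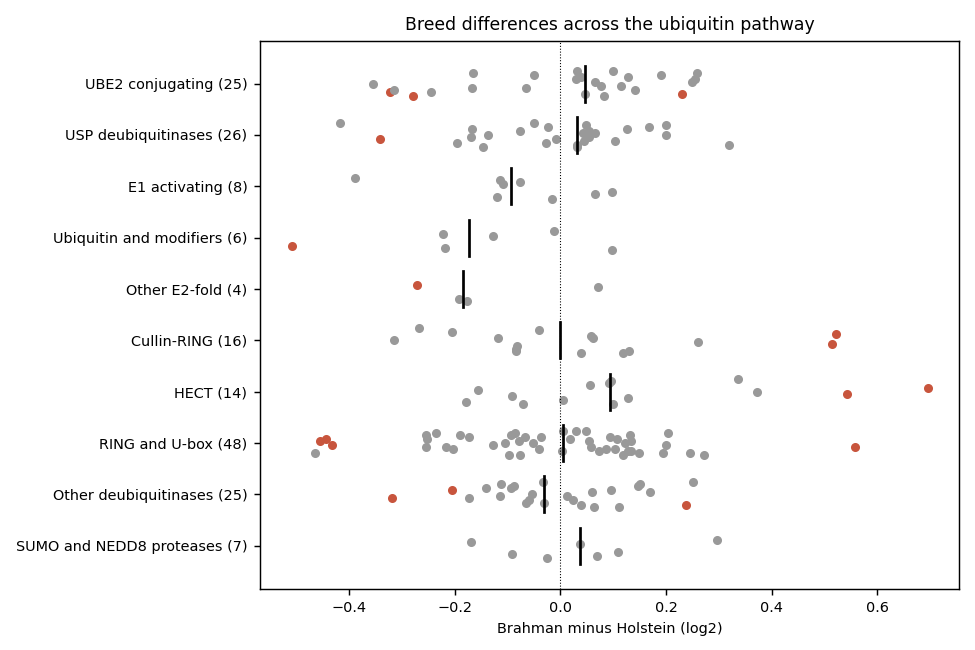
Brahman minus Holstein difference (log2) of each UBE2 and USP gene and of each gene in 8 further lists of the ubiquitin system. Points are genes, with their number in brackets. The list labelled SUMO and NEDD8 proteases holds those for SUMO, UFM1 and autophagy modifiers, and none for NEDD8. The black line is the median of a list and red marks an unadjusted p under 0.05, none of which had an adjusted p under 0.05.

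The count of 4 members at an unadjusted p under 0.05 moved with single arrays. Leaving out Holstein 3 raised it to 9 (17.6% of members, against 16.0% of all probe sets in that fit), and leaving out Holstein 1 or Holstein 2 gave 2 (3.92%, against 12.7% and 10.6%). Without Brahman 1 the count was 2, without Brahman 2 it was 3 and without Brahman 3 it was 1 (against 9.84%, 10.9% and 9.64% of all probe sets), and the number of members called was 0 in each of these fits. With a term for the spike-in level the count was again 4 (7.84%, against 9.99% of all probe sets) but for other genes, UBE2E2 (0.92), UBE2S (-0.72), USP30 (-0.43) and USP33 (0.67), and 23 of 51 members changed sign. UBE2A (-0.22), UBE2B (0.44), UBE2D2 (0.25), UBE2N (-0.28) and USP20 (-0.37) kept theirs, with unadjusted p-values from 0.056 to 0.276. As the spike-in level did not overlap between the breeds, these values cannot be fully separated from those of breed.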

How the data were processed

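The authors deposited 1 log2 value per probe set and array, made with RMA per the submitters' processing notes; its version is not stated in the sources used. This method subtracts background, equalises the distributions of the arrays and summarises probes. Levels of different genes are not compared, apart from the lower quartile of the array and the gaps within each array of 14 related pairs. Only the UBE2B and UBE2A gap is given. Of 24128 probe sets, 112 are array controls and 24016 were tested. The platform's annotation gave 1 gene symbol for 13292, several for 86 and none for 10638. Of the 51 members, 50 were found in the RefSeq gene table (ARS-UCD2.0) with the same symbol. That table also gave which members neighbour each other; no sequences were used and no coordinates are given.

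Breeds were compared with limma 3.58.1 in R 4.3.3 (lmFit, eBayes, breed as the only term, two-sided, Benjamini-Hochberg over all probe sets, called at an adjusted p under 0.05), after tests on simulated data. Intervals are not adjusted for the number of genes. The number of arrays, 3 per breed, limits precision. The members and lists were chosen with earlier results of these data known. Genes with values on every array are up to 8 conjugating and 10 deubiquitinating enzymes by smallest p and a list fixed for their roles; UBE2M, UBE2R2, USP7, USP9X, USP1 and USP25 of that list were not analysed here. From each other list the 2 genes with the smallest p are named. Alternatives were filters, normalisations, priors, weights, a replicate block, 1 mean per gene, a spike-in covariate and leaving out each array.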

Additional observations from a re-analysis of the deposited data

How the results depend on the processing

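In all 16 alternatives 0 members were called. The array-wide count of 33 called probe sets was 10 with the replicate number as a block, 13 with 1 mean value per gene and 0 with the spike-in covariate (2400 probe sets at an unadjusted p under 0.05), and ran from 5 to 55 with 1 array left out. The labels do not say whether equal replicate numbers mark paired animals. Correlations of same-numbered deviations were 0.11, -0.04 and -0.07, and those of unlike-numbered ones ran from -0.09 to 0.12. With 3 arrays per breed they cannot decide whether the numbers mark a pairing. With the replicate block 5 members were lower at an unadjusted p under 0.05 instead of 3, the added ones being UBE2S and USP53. The 1 higher member in that fit was UBE2B (unadjusted p = 0.041 in limma), while UBE2D2 had an unadjusted p of 0.055. The count of 1 higher member in the main fit became 0 with arrays set to 1 median. It became 2 with a second quantile normalisation, with cyclic loess or with the spike-in covariate. With 1 array left out there were 1 to 5 lower and 0 to 4 higher (over all probe sets, 9.64% to 16.0% in either direction), and 10 to 18 members without overlap instead of 7, while the share without overlap over all probe sets was 28.1% to 34.3% instead of 20.0%. The medians moved by less than the spread between arrays, yet changed sign without Holstein 3 for the conjugating enzymes (-0.0038) and without Holstein 1 (-0.014) or Holstein 2 (-0.0077) for the deubiquitinases. Of 51 members 18 kept 1 sign in every alternative in which they were tested. With 3 arrays per breed the median SE of a member was 0.11, which limits what can be called.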
